A study of Rattus norvegicus with 125 samples.

Results

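Water load during continuous vasopressin action was examined in the cortical collecting duct of the rat, in 8 libraries of the 125 samples in the series: 4 from water-loaded rats and 4 from control rats. The libraries were chosen by their labels, and all 17144 gene symbols of their expression table were eligible. The series profiled hand-dissected kidney tubule segments by paired-end RNA sequencing with reads of 50 nucleotides. All 8 rats were male Sprague-Dawley animals, 5 weeks old by the protocol although the age label reads adult, and all carried a subcutaneous minipump delivering ddAVP (desmopressin, a vasopressin analog selective for the V2 receptor) at 5 ng/h. Water-loaded rats took 50 mL of water a day in gelled food, and control rats took 25 mL a day in the same form. Tubules were dissected after 4 days of the load. The labels number separate rats in each group, and neither group lacked ddAVP, so the comparison holds the hormone analog constant and varies the water.

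Vasopressin acts on the V2 receptor of principal cells, where cAMP drives the water channel aquaporin-2 (Aqp2) to the apical membrane and raises transcription of its gene. Water leaves the cell across the basolateral membrane through aquaporin-3 (Aqp3). When water intake stays high under sustained vasopressin, the kidney comes to excrete water again, a phenomenon called vasopressin escape that is known for a fall of aquaporin-2. The cortical collecting duct also holds intercalated cells, which move acid and base.

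Expression values were RPKM, reads normalized to transcript length and to the mapped reads of the library. A gene was tested when it reached 1 RPKM in at least 4 of the 8 libraries, which left 8492 genes. Changes are differences of log2(RPKM + 1), water load minus control, a scale that understates changes of weakly expressed genes. A gene was called at a Benjamini-Hochberg adjusted p under 0.05 in limma, either unpaired or with equal replicate numbers as a block. The unpaired fit called 13 genes, or 0.153% of those tested: 8 higher (0.0942%) and 5 lower (0.0589%) under water load. The replicate block called 29, or 0.341%: 14 higher (0.165%) and 15 lower (0.177%). The 29 included all 13. The labels do not pair the rats across groups, so calls made only in the block rest on an assumed pairing. Among genes called higher, E2f1, Cdc45, Ube2t and Mlf1 in both fits, and Melk and Mxd3 in the block, reached 1 RPKM in no control. Asf1b and Knstrn reached it only in control 3. All of these entered the test through the group where they were high. At an unadjusted p under 0.05 the unpaired fit held 632 genes (7.44%), 353 higher (4.16%) and 279 lower (3.29%), and the block held 917 (10.8%). The unpaired calls were few and fragile. A pseudocount of 0.1 or no filter on low values left 0, and a mean of at least 5 RPKM left 2. Leaving out any 1 water-loaded library left 0 or 1. In those runs E2f1, Cdc45, Ube2t and Mlf1 could not pass the filter, which fixed part of that drop in advance.

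Read totals were not given, but the spacing of low RPKM values gave depths relative to control 4. These were 0.687 to 1.08 in water-loaded libraries and 1.00 to 1.29 in controls. The depth of water-loaded library 4 is uncertain, because only 5 of 7 estimates agreed, and for water-loaded library 3 the count was 6 of 7. Genes at 1 RPKM or more numbered 8213 to 8769 under water load and 7661 to 8539 in controls. Aqp2, the marker of the labelled segment, had the highest RPKM of all entries in every library. Control 1 stood apart in proximal tubule transcripts: the 9 listed markers summed to 411 RPKM there, against 15.9 to 25.4 RPKM in water-loaded libraries and 17.9 to 24.4 RPKM in the other controls. Its Slc34a1, the proximal phosphate transporter, was at 237 RPKM and at most 6.78 RPKM elsewhere. Umod, a thick ascending limb marker, was highest in control 3 at 251 RPKM. Connecting tubule markers were high in water-loaded library 4, where Calb1 reached 2414 RPKM, and in control 4, where Klk1 reached 1014 RPKM. Calb1 was at 330, 246, 464 and 2414 RPKM under water load, against 323, 72.3, 47.4 and 376 RPKM in controls. Its water-loaded library was the higher in every replicate number. The log2 change was 1.93 (limma adjusted p of 0.562 unpaired and 0.0932 in the block), whereas Klk1 gave -0.41. The part of these transcripts in the results was not tested, and values without control 1 are given where they bear on a result.

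Promoters of 5 genes are shown: Aqp2, the marker of the hormone response, and 4 cell division genes called higher under water load in either fit. Cdc45 and Asf1b passed the filter through the water-loaded libraries, and Ccnb2 and Kifc1 were called only in the replicate block. Each runs from 250 bases before to 50 bases after the gene start in RefSeq on build GRCr8, 5′ to 3′ on the gene's strand. Capitals mark, on either strand, TTTGAA or TTCGAA (the cell cycle homology region, CHR), CCAAT (the CCAAT box), TTCCCG or TTGGCG (the core of an E2F site) and TGACG (the core of a cAMP response element); adjoining matches run together.
Aqp2, chr7:132590036-132590335, plus strand: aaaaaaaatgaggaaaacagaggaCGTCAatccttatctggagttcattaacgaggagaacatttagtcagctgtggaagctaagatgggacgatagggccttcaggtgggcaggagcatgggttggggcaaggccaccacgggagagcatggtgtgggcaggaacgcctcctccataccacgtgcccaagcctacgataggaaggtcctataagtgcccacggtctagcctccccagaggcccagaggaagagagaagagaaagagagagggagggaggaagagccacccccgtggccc
Cdc45, chr11:95689928-95690227, plus strand: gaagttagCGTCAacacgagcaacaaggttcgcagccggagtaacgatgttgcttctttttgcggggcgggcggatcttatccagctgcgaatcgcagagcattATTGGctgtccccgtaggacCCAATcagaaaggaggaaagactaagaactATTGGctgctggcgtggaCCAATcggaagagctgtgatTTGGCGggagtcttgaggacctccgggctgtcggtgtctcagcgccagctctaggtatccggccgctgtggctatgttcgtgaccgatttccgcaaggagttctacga
Asf1b, chr19:41100303-41100602, minus strand: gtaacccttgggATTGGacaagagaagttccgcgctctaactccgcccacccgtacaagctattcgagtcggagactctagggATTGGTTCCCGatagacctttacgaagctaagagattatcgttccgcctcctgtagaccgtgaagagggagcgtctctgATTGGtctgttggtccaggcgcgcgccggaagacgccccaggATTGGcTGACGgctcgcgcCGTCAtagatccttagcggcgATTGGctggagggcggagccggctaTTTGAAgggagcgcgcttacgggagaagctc
Ccnb2, chr8:79981609-79981908, minus strand: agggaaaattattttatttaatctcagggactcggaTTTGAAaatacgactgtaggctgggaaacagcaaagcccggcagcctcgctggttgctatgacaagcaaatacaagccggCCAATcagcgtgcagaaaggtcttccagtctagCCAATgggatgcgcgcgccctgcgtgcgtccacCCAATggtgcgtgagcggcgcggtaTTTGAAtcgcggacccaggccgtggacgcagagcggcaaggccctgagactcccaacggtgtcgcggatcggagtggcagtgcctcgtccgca
Kifc1, chr20:5000679-5000978, plus strand: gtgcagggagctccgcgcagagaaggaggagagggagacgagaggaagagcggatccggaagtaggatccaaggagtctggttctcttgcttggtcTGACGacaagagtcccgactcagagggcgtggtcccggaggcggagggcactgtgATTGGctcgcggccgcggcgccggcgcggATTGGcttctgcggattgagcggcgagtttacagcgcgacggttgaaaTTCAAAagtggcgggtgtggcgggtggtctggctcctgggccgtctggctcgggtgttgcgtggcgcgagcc
The Aqp2 window held 1 of these motifs, the TGACG core on the opposite strand. Ccnb2 held 2 CHR and 3 CCAAT matches.

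Both aquaporins were lower in every water-loaded library than in any control. Aqp2 was at 5333, 8131, 6013 and 10658 RPKM in water-loaded libraries 1 to 4, against 11019, 11333, 17341 and 18342 RPKM in controls 1 to 4. The groups did not overlap, but water-loaded library 4 lay close to controls 1 and 2. The means were 7534 ± 2400 RPKM under water load and 14510 ± 3872 RPKM in controls (SD, n = 4 each), a log2 change of -0.96 with a two-sided exact permutation p of 0.0286, the smallest that 4 against 4 can give. That p became 0.0571 without water-loaded library 1 or without any 1 control. In limma Aqp2 did not pass the threshold, with an adjusted p of 0.598 unpaired and 0.177 with the replicate block.

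Aqp3 was at 227, 332, 470 and 666 RPKM under water load, against 871, 1670, 1830 and 1293 RPKM in controls. Every water-loaded value lay below every control value, and the gap was wider than for Aqp2. Aqp3 fell by 1.79 on the log2 scale with an SE of 0.25 in the replicate block (limma adjusted p = 0.0203), whereas the unpaired fit gave an adjusted p of 0.0763. Without control 1 the log2 changes were -1.08 for Aqp2 and -2.01 for Aqp3. For background, 11 cortical collecting duct libraries of another experiment in the series, normalized in a separate table and so not compared, ran from 3374 to 16910 RPKM for Aqp2, with a median of 6776 RPKM, and from 9.12 to 1493 RPKM for Aqp3, with a median of 234 RPKM. Aqp4, a second basolateral water channel, and Aqp6, an intracellular channel of intercalated cells, gave log2 changes of 0.21 and -0.13 with overlapping groups.

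**Figure D1:**
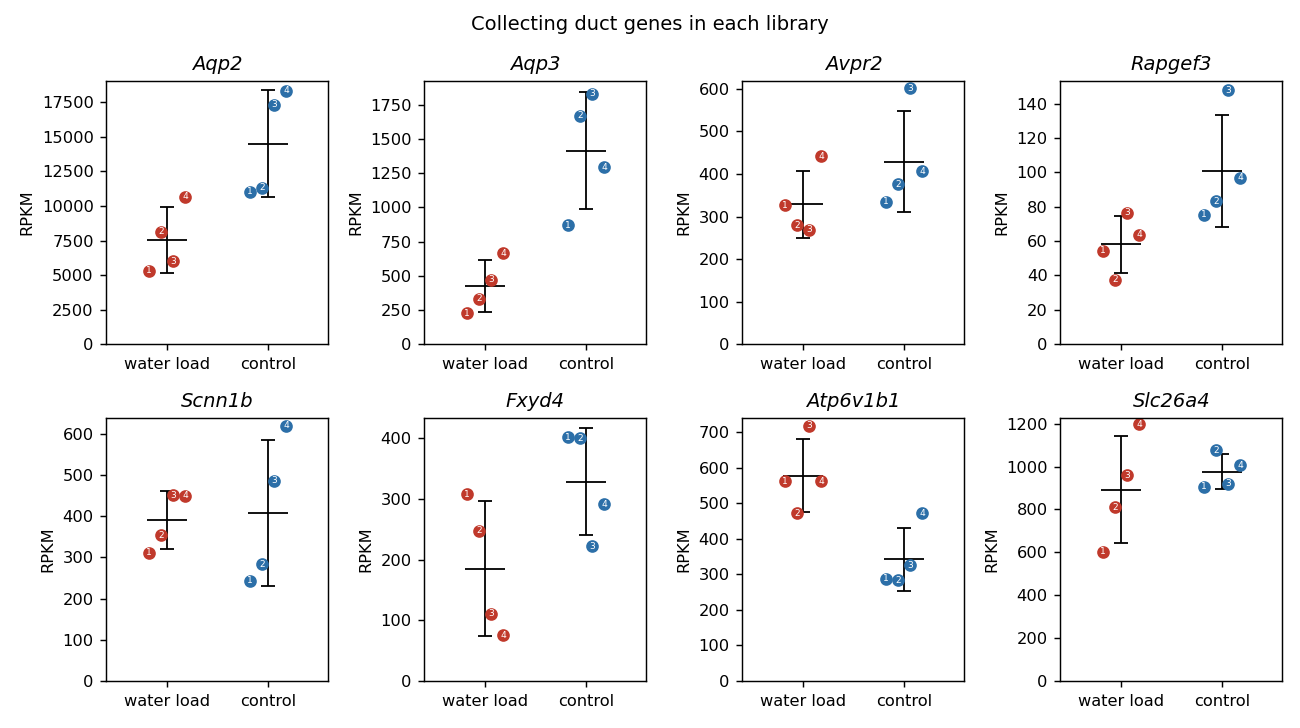
RPKM (linear axis from 0) of 8 genes in each library, water load on the left and control on the right of each panel; numbers in the points are replicate numbers, and bars are mean and SD (n = 4). Aqp2 and Aqp3 do not overlap between the groups, while the other 6 genes overlap.

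Upstream of the channels, none of the 17 tested genes of the vasopressin receptor, cAMP and protein kinase A list was called in either fit. Calls were only 0.153% (unpaired) and 0.341% (block) of all tested genes. The lack of a call in a list this short therefore says little, here and for the other lists. Their median log2 change was -0.37, beside 0.017 over all tested genes, and 12 of the 17 had a lower mean under water load. Avpr2, the V2 receptor itself, was at 327, 279, 269 and 441 RPKM under water load, against 335, 375, 601 and 406 RPKM in controls, and the groups overlapped. Rapgef3 (Epac1, a cAMP-activated exchange factor) gave -0.78 and Avpr1a (the V1a receptor) -0.63. Adcy6 (adenylyl cyclase 6, the main cyclase of vasopressin signalling in collecting duct) gave -0.58, and the groups overlapped for each. In every replicate number Rapgef3, Avpr1a and Adcy6 were lower under water load (limma adjusted p of 0.281, 0.412 and 0.446 in the block). Avpr2 was not lower in number 4. Of 9 tested phosphodiesterases, which degrade cyclic nucleotides, none was called, 6 had a lower mean under water load and the median was -0.27. Pde4c was higher in all water-loaded libraries (log2 change 0.92, limma adjusted p 0.669). Of 29 tested genes of Aqp2 trafficking and turnover none was called, and their median was 0.03.

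Other principal cell genes did not share one direction. The epithelial sodium channel subunits gave log2 changes of 0.11 for Scnn1a, 0.03 for Scnn1b and -0.54 for Scnn1g, and Hsd11b2, which protects the mineralocorticoid receptor from glucocorticoid, gave -0.05. Fxyd4 (CHIF, a regulator of the sodium pump) was at 308, 247, 110 and 74.9 RPKM under water load. Controls were at 402, 400, 222 and 291 RPKM, with overlap. Its water-loaded library was the lower in every replicate number (limma adjusted p of 0.617 unpaired and 0.194 in the block). None of the 22 tested genes of the sodium channel and aldosterone list was called. Wnk1, a kinase that controls salt transport, was higher in all water-loaded libraries, with a log2 change of 0.87 that missed the threshold (limma adjusted p of 0.666). Among 13 tested transcription factors of principal cells, Hoxb7 and Pax8, both developmental regulators of the duct, were lower in all water-loaded libraries by log2 changes of -0.88 and -0.96 (limma adjusted p of 0.285 and 0.333), while Gata3, Elf3 and Tfcp2l1 gave -0.22, 0.03 and -0.09.

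Intercalated cell transcripts stood beside these values. The 6 intercalated markers summed to 2901 to 3444 RPKM under water load and 2145 to 2851 RPKM in controls, a narrow gap that rests on Atp6v0d2 and Atp6v1b1, both proton pump subunits, with log2 changes of 0.85 and 0.77. Atp6v1b1 was at 561, 471, 717 and 561 RPKM under water load, against 288, 284, 326 and 472 RPKM in controls, which overlapped through control 4 alone. Slc4a1, the chloride-bicarbonate exchanger of type A cells, gave a log2 change of 0.45, Slc26a4 (pendrin, of type B cells) -0.17 and Foxi1, the transcription factor of intercalated cells, -0.08. None of the 20 tested genes of the fuller intercalated list was called, 10 had a higher and 10 a lower mean, and the median was 0.12. In bulk tubules, fewer cells of a type and less RNA per cell cannot be told apart, and the part of cell composition in the aquaporin values was not tested. Endothelial markers summed to 28.5 to 174 RPKM under water load and 27.0 to 226 RPKM in controls. Leukocyte markers summed to 71.2 to 266 RPKM under water load and 79.4 to 338 RPKM in controls.

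Many cell cycle genes were higher in all 4 water-loaded libraries than in any control. Of 40 genes of G1/S and DNA replication in the table, 17 were above every control in all 4 water-loaded libraries and 0 were below, and of 40 genes of G2/M and mitosis the counts were 16 and 0. Over the 12565 genes above 0 in any library, 2.16% were separated upward and 1.55% downward. These counts include untested genes near 0. Among tested members, 15 of 30 and 11 of 32 were separated upward and 0 downward. Over all tested genes the shares were 2.18% upward and 2.10% downward. Both calls in the first list, E2f1 and Cdc45, passed the filter only through the water-loaded libraries and are given as values. In the second list the unpaired fit called Ube2c, and the replicate block also called Ccnb2 and Pbk. Their tested members had median log2 changes of 1.26 (30 genes) and 1.61 (32 genes), the second 2.64 with a pseudocount of 0.1. Of these members, 4 and 2 reached 1 RPKM in no control and passed the filter only through the water-loaded libraries. In the second list Plk1 and Top2a reached it in 1 control each, so they too passed through the water-loaded libraries. Without control 1 the medians were 1.26 and 1.69.

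Ube2c, the ubiquitin-conjugating enzyme of the anaphase-promoting complex, was at 42.1, 39.6, 39.7 and 37.9 RPKM under water load, against 13.7, 0.531, 4.81 and 0.635 RPKM in controls. The water-loaded values were tightly grouped and the controls were scattered. It rose by 3.42 on the log2 scale (SE 0.61, limma adjusted p = 0.0455 unpaired). Asf1b, a chaperone of histones H3 and H4, was at 9.67, 19.2, 10.2 and 21.7 RPKM under water load, against 0.0266, 0.0407, 2.34 and 0.291 RPKM in controls. Asf1b rose by 3.38 (SE 0.51). Only control 3 reached 1 RPKM, so Asf1b passed the filter through the water-loaded libraries and is given as values. With no filter on low values it was not called.

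E2f1, a transcription factor of S phase entry, was at 3.67, 3.53, 3.43 and 5.44 RPKM under water load and at no more than 0.137 RPKM in any control. Cdc45, a part of the replicative helicase, was at 5.39, 8.30, 3.68 and 5.11 RPKM, against 0.00758, 0.00632, 0.759 and 0.318 RPKM in controls. The log2 changes were 2.22 and 2.37. No control reached 1 RPKM, so both genes were tested only because the water-loaded libraries were high, and with no filter their limma adjusted p was 0.053 and 0.14. The same holds for the filter of 4 more called genes, Ube2t, a ubiquitin-conjugating enzyme of the Fanconi DNA repair pathway, Mlf1, a protein first known from a leukaemia fusion, the kinase Melk, and Mxd3, a partner of Max, with log2 changes of 2.82, 2.69, 2.11 and 2.85. Knstrn, a spindle and kinetochore protein, rose by 3.30. Only control 3 (3.83 RPKM) reached 1 RPKM, so Knstrn too passed the filter through the water-loaded libraries. With no filter it was not called.

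Tubb5, a beta-tubulin, was the called gene of highest expression among those that rose in the unpaired fit, at 282, 266, 175 and 202 RPKM under water load, against 64.3, 73.3, 56.7 and 47.4 RPKM in controls. The groups were far apart, and Tubb5 rose by 1.91 (SE 0.27, limma adjusted p = 0.0208 unpaired), although reads of near-identical tubulin copies may be shared. The replicate block added the mitotic cyclin Ccnb2, the minus-end kinesin Kifc1 and the kinase Pbk, with rises of 2.29, 2.02 and 2.41 (limma adjusted p of 0.0478, 0.0495 and 0.0478).

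Other members of the 2 lists were separated without a call. Mcm3, Mcm5 and Mcm6, helicase subunits, gave log2 changes of 2.45, 2.3 and 1.82, and the mitotic kinase Plk1 gave 2.24 (limma adjusted p of 0.0946 unpaired and 0.0605 in the block). Foxm1, a transcription factor of mitotic genes, gave 2.10, Cks2, a cyclin-dependent kinase subunit, 2.50, and Ccnd1, cyclin D1, 1.04. Mki67, the proliferation marker, was at 5.95, 4.46, 2.77 and 0.998 RPKM under water load, against 0.827, 0.016, 0.624 and 0.00306 RPKM in controls, and it was not tested because too few libraries reached 1 RPKM. Top2a, which untangles chromosomes, gave 1.61 with values of 1.48 to 12.2 RPKM under water load and 0.0426 to 1.47 RPKM in controls. The gap between its groups was very narrow. Plk1 and Top2a reached 1 RPKM in only 1 control each, so both passed the filter through the water-loaded libraries.

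Promoters of 23 of 30 genes (the 29 called genes and Aqp2) were found in the RefSeq table. A CHR match was in 75.7% of 37 G2/M promoters, against 12.6% of promoters of tested genes and 19.7% of all 33469 promoters. The CCAAT box was in 75.7% of the G2/M promoters, against 38.6% of those of tested genes and 37.5% of all. The E2F core was in 75.0% of 32 G1/S promoters, against 31.0% of those of tested genes and 17.9% of all. A longer E2F form (TTCCCGC or TTGGCGC) was searched after the shares of the core had been seen, and gave 56.2%, 13.0% and 6.26% in the same order. TGACG was in 34.8% of promoters of tested genes. The list shares cover every listed gene with a promoter, changed or not. In 10 promoters of genes called higher, CHR was in 40.0%, the CCAAT box in 80.0% and TGACG in 50.0%. The E2F core was in 40.0% of those 10 and the longer form in 10.0%. Of those 10 genes, Asf1b, Cdc45, Knstrn, Melk, Mlf1, Mxd3 and Ube2t passed the filter through the water-loaded libraries, so these shares are given only as values. In 12 promoters of genes called lower, CHR was in 8.33%, the CCAAT box in 0%, TGACG in 8.33% and the E2F core in 25.0%. These matches describe letters in a window and are not sites shown to be bound.

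**Figure D2:**
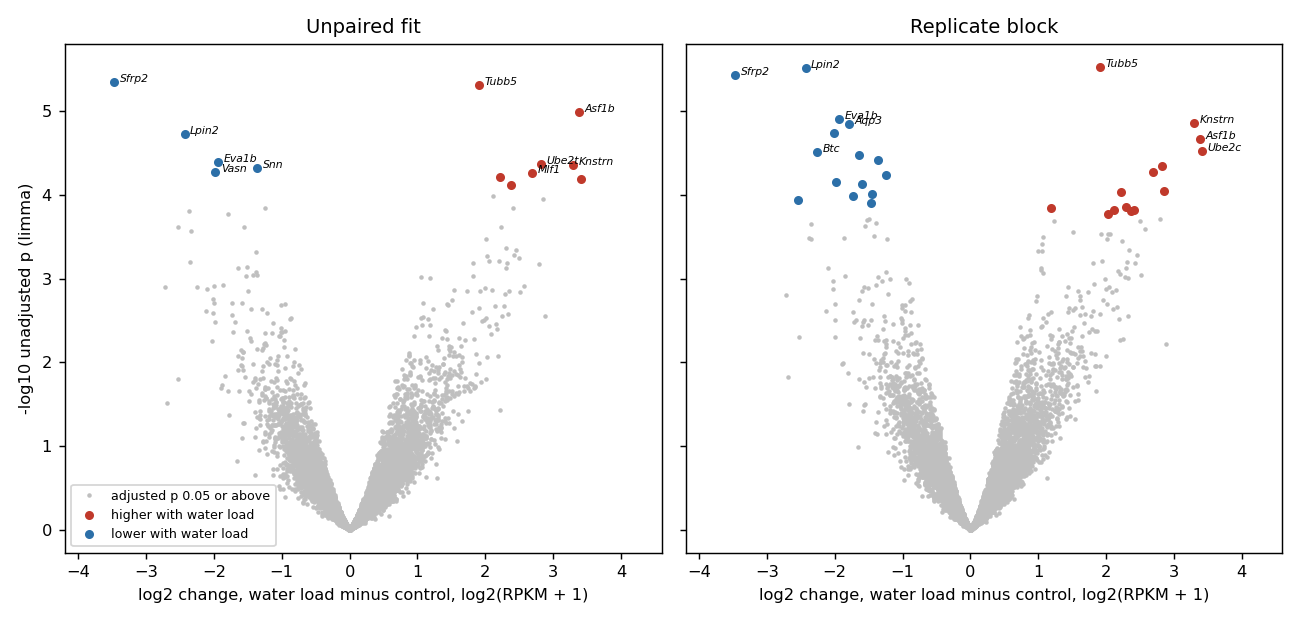
Log2 change (x axis, water load minus control) against -log10 of the unadjusted limma p (y axis) for 8492 genes, unpaired on the left and with the replicate block on the right. Red and blue points are genes called higher and lower under water load, 8 and 5 unpaired and 14 and 15 in the block. Some red points are genes that reached 1 RPKM in no control or only in control 3.

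In either fit 15 genes fell. Sfrp2, a secreted modulator of Wnt signalling, was at 1.37, 5.72, 0.826 and 1.56 RPKM under water load, against 44.3, 39.7, 31.6 and 17.6 RPKM in controls. Its groups were far apart, and Sfrp2 fell by 3.47 on the log2 scale (SE 0.48, limma adjusted p = 0.0208 unpaired and 0.0105 in the block). Lpin2, a phosphatidate phosphatase of lipid synthesis, was at 92.6, 53.5, 59.0 and 36.9 RPKM, against 443, 560, 174 and 223 RPKM in controls. Lpin2 fell by 2.43 (limma adjusted p = 0.0404 unpaired).

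Snn (stannin, a small membrane protein) was at 199, 159, 190 and 219 RPKM under water load, against 449, 500, 512 and 510 RPKM in controls. The spread within each group was small beside the gap between them, and Snn fell by 1.36 (limma adjusted p = 0.0455). Vasn (vasorin, which binds TGF beta) fell by 1.98 and Eva1b by 1.94, both with a limma adjusted p of 0.0455. In the replicate block Coch (cochlin, a secreted protein) fell by 1.59, Defb29 (a beta-defensin) by 2.54, Mcoln3 (TRPML3, an endolysosomal cation channel) by 1.45, RGD1305645 by 1.24 and Hist1h4b, a histone H4 gene with near-identical copies, by 1.46. The groups overlapped for Coch, Mcoln3, Hist1h4b and Spry1. With the term for replicates 1 and 2 against 3 and 4 in place of the block, Mcoln3 and Hist1h4b were also called, and Coch and Spry1 were not.

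**Figure D3:**
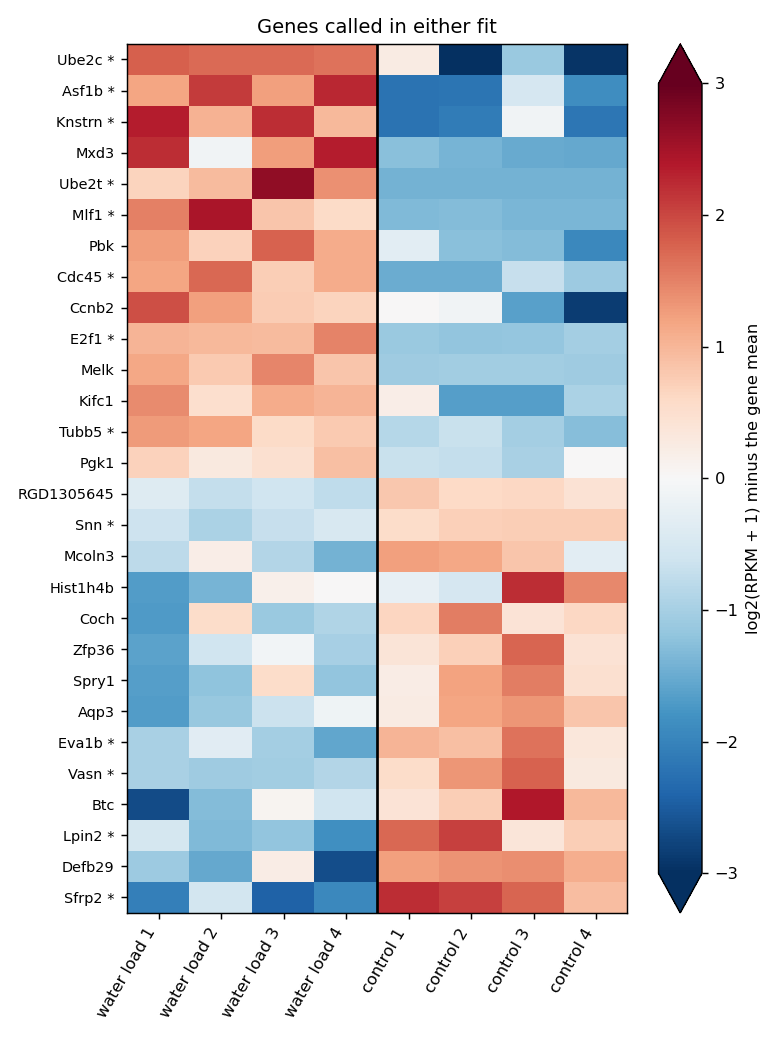
Log2(RPKM + 1) minus the gene's mean (colour) for 28 of the 29 genes called in either fit, water-loaded libraries left of the line and controls right of it; a star marks the 13 genes of the unpaired fit. Ube2c to Pgk1 are higher and RGD1305645 to Sfrp2 lower under water load, and control 3 is less low than the other controls for Knstrn and Asf1b.

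Immediate early genes mostly had lower means under water load. Of 18 tested immediate early genes, which respond within minutes to growth factors and stress, 17 had a lower mean under water load. Over all tested genes 4387 of 8492 had a higher mean. The list's median log2 change was -0.71, beside 0.017 over all tested genes. That list median was -0.93 without control 1, -0.52 without control 2 and -0.59 without control 3. Only Zfp36 (tristetraprolin, which destabilises AU-rich messages) was called, in the block: it was at 20.4, 42.5, 61.0 and 31.8 RPKM under water load, against 84.1, 106, 220 and 87.8 RPKM in controls, and fell by 1.64 (limma adjusted p = 0.0255). Jun, a subunit of AP-1, was also separated, at 22 to 34.0 RPKM under water load and 51.4 to 110 RPKM in controls (limma adjusted p 0.18 unpaired and 0.116 in the block), while Fos and Egr1 overlapped with log2 changes of -0.37 and -0.56.

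In the EGF receptor and MAPK list, 15 of 20 tested genes had a lower mean and the median was -0.34, or -0.22 with no filter. Btc (betacellulin, an EGF receptor ligand) was at 2.10, 7.00, 19.8 and 12 RPKM under water load, against 25.3, 31.7, 103 and 38.0 RPKM in controls. Every water-loaded value was lower, and within each number the water-loaded library was the lower of the pair. Btc fell by 2.25 in the block (SE 0.34, limma adjusted p = 0.0255), against an adjusted p of 0.205 unpaired. Spry1, an inhibitor of receptor tyrosine kinase signalling, fell by 1.73 in the block (limma adjusted p = 0.0413). In the TGF beta and BMP list no gene was called and the median was -0.42, but it was -0.70 without water-loaded library 3, -0.67 at a mean of at least 5 RPKM and -0.10 with no filter. Id4, an inhibitor of DNA binding, came closest with -2.34 (limma adjusted p 0.0995 unpaired and 0.0527 in the block). Jag1, a Notch ligand, and Hes1, a Notch target, were lower in all water-loaded libraries by -0.90 and -1.24 without a call, while the median of 18 Notch genes was -0.02.

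Energy metabolism genes mostly had higher means under water load. Of 46 tested oxidative phosphorylation genes 43 had a higher mean under water load, with a median of 0.48 that was 0.30 without control 3. Of 22 TCA cycle genes 20 did, with a median of 0.45. Over all tested genes 4387 of 8492 did. None of the genes in these 2 lists was called. Ndufv1, a subunit of complex I, was at 306, 282, 299 and 435 RPKM under water load, against 132, 211, 227 and 276 RPKM in controls, and Sdha, of complex II, gave a log2 change of 0.80. In glycolysis the median over 17 genes was 0.34. Pgk1, phosphoglycerate kinase, was at 1207, 904, 1037 and 1384 RPKM under water load, against 464, 451, 376 and 745 RPKM in controls, without overlap, and rose by 1.18 in the block (SE 0.21, limma adjusted p = 0.0478). Pfkm, a phosphofructokinase, was separated at 0.94 without a call.

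Cholesterol synthesis genes had a median of 0.44 over 20 tested genes, and none was called. The median was 0.69 without water-loaded library 2 and 0.72 at a mean of at least 5 RPKM. Mvk, Fdps, Msmo1 and Dhcr7, enzymes from mevalonate to the sterol stage, were higher in all water-loaded libraries, with log2 changes of 1.07, 0.93, 1.44 and 0.89. The keratin Krt8 was separated upward at 0.87 and the claudin Cldn19 downward at -1.39 (limma adjusted p of 0.459 and 0.178), whereas Cldn8, a claudin of the collecting duct, gave -0.25 with overlap. Adra2a, the alpha-2A adrenergic receptor, which opposes cAMP formation, was at 3.33 to 5.13 RPKM under water load and 7.27 to 10.6 RPKM in controls (limma adjusted p 0.552). Herpud1, of endoplasmic reticulum stress, gave -0.61 and the unfolded protein response list a median of -0.32, with none of 23 genes called.

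**Figure D4:**
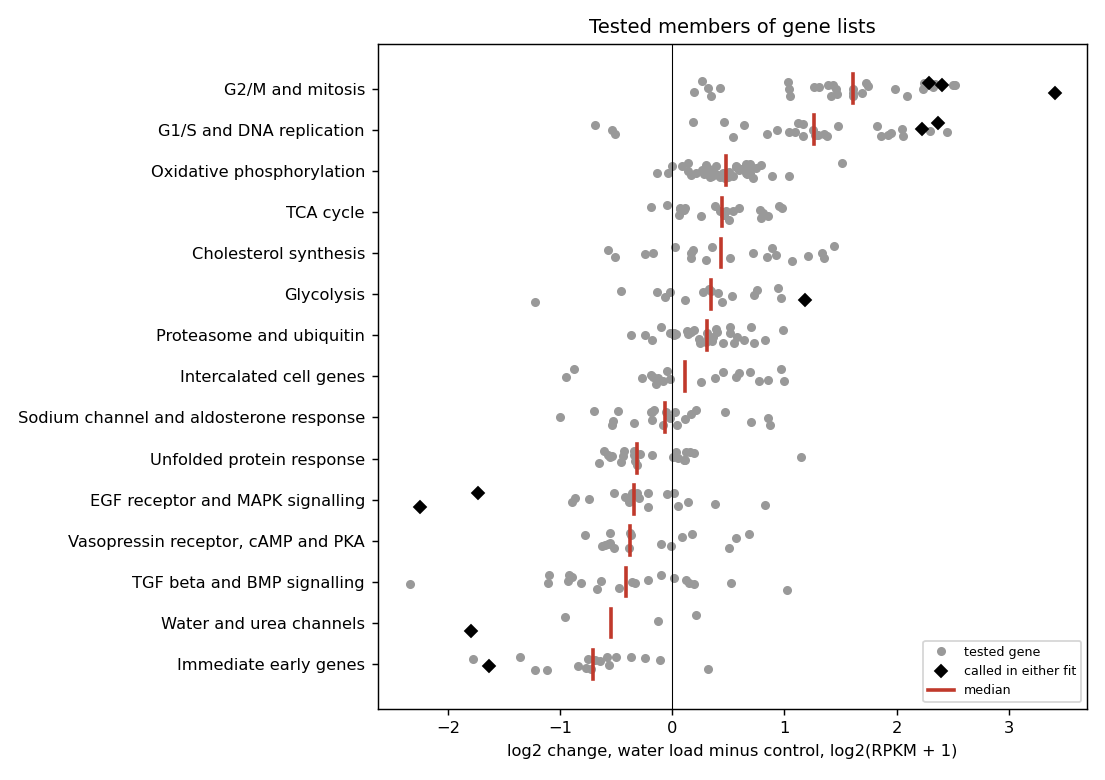
Log2 change (x axis, water load minus control) of each tested gene in 15 lists (rows); red bars are list medians and black diamonds are genes called in either fit. The 2 cell cycle lists lie mostly above 0, with medians of 1.61 and 1.26, and immediate early genes mostly below 0, with a median of -0.71.

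The libraries also differed in a way that the groups did not account for. The first principal component, with 31.7% of the variance, separated replicates 1 and 2 from 3 and 4 in both groups, and the second, with 21.0%, did not separate the groups fully. The labels give no batch. Endothelial marker sums were 27.0 to 62.5 RPKM in replicates 1 and 2 of both groups and 106 to 226 RPKM in replicates 3 and 4. Leukocyte marker sums were 71.2 to 168 RPKM and 168 to 338 RPKM in the same order. The part of these transcripts in the split was not tested. With a term for this split, added after the data were seen, limma called 48 genes, 27 higher and 21 lower, among them the 13 of the unpaired fit.

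**Figure D5:**
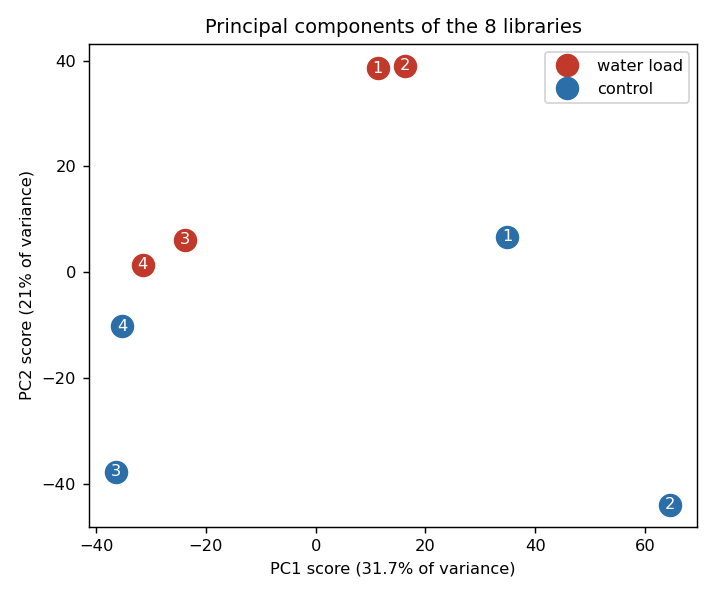
Scores of the 8 libraries on the first (x axis) and second (y axis) principal components of log2(RPKM + 1); numbers are replicate numbers. Replicates 1 and 2 have positive and replicates 3 and 4 negative first-component scores in both groups.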

How the data were processed

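The authors deposited RPKM values per transcript; per the submitters' processing notes Trimmomatic 0.32, STAR 2.3.0-r192, SAMtools, HOMER and build rn5 were used, with order and settings not given in the sources used here, nor whether counting used strand. RPKM are not counts, so limma 3.58.1 (R 4.3.3) with an intensity trend was fitted to log2(RPKM + 1), with the transcript of highest mean per symbol (503 symbols had several) and the filter of 1 RPKM in 4 libraries. Figures and motif searches used Python; the fit was tested on simulated data. Equal replicate numbers were used as a block, although the labels do not pair the rats. Residual correlations of same-numbered rats were 0.209 to 0.313. They were 0.173 to 0.348 between different numbers of the same split (1 and 2, or 3 and 4) and -0.343 to -0.155 across it. Numbers and split therefore cannot be told apart, and these correlations, taken from the same data, give no reason to pair by number within a split. P-values cover the spread between these rats.

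Named genes were Aqp2, Aqp3, list members called in either fit or defining a list, and the called genes of smallest p or largest change; the rest of the named genes were picked with their values in view. Some genes, 1 of them called, are not reported here. The members and lists were chosen with earlier results of these data known. Alternatives were pseudocount, filters, scaling, array weights, replicate block, every transcript, a split term and leaving out each library. Aqp2 and Aqp3 had exact permutation tests, two-sided. Promoters came from RefSeq (GRCr8), a different build from the authors'.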

Additional observations from a re-analysis of the deposited data

Results flagged for a closer look

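Of 186 groups of 4 libraries (93 genes), 8 held a library far from the other 3, and chance flags about 1 in 20 groups. A flag needed a gap over range above 0.829 (Dixon critical value) on log2(RPKM + 1). On that scale Calb1 under water load (2414 RPKM in library 4) was not flagged. Nor were Klk1 (1014 RPKM in control 4) and Slc34a1 (237 RPKM in control 1), although all 3 stood far out in RPKM. Under water load, library 4 was high for E2f1 (5.44 RPKM, the others 3.43 to 3.67), Herpud1 (205 RPKM, the others 142 to 143) and Wnk1 (36.0 RPKM, the others 14.0 to 15.9). Library 3 was low for Mcm5 (4.11 RPKM, the others 8.73 to 9.45) and Mcm6 (9.40 RPKM, the others 22.2 to 23.6), and library 2 was low for Hes1 (4.74 RPKM, the others 10.9 to 12.2). Among controls, library 3 was high for Knstrn (3.83 RPKM, the others 0.126 to 0.218), and library 2 was low for Tk1 (1.49 RPKM, the others 6.25 to 7.93).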

How the results depend on the processing

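The number of called genes depended strongly on the settings. Against 13 unpaired (8 higher, 5 lower), a pseudocount of 0.1 or no filter on low values gave 0 (595 and 782 at an unadjusted p under 0.05 in limma), a mean of at least 5 RPKM gave 2 (1 higher, 1 lower), and array weights gave 25 (18 higher). Quantile normalization gave 9 (4 higher, 5 lower) and median-ratio scaling 12. The replicate block gave 29 (14 higher, 15 lower), and the split term 48 (27 higher, 21 lower). Leaving out 1 library gave 0 to 7 calls (0 to 6 higher, 0 to 5 lower): 0, 1, 0 and 0 without water-loaded libraries 1 to 4, and 7, 7, 5 and 6 without controls 1 to 4. Leaving out 1 pair from the replicate block gave 0 to 35 calls (0 to 17 higher, 0 to 18 lower), with 0 without pair 1. Genes at 1 RPKM in no control could not be tested in runs without a water-loaded library or a pair.

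Aqp2 became 0 under quantile normalization, because it ranked 1 in every library and so received the same value in all of them. Median-ratio scaling gave -0.93 (exact permutation p = 0.0571). In the replicate block an exact test over 4 pairs cannot go below 0.125, which both Aqp2 (-0.96) and Aqp3 (-1.79) reached. Leaving out 1 library gave -1.14 to -0.81 for Aqp2 and -2.05 to -1.53 for Aqp3. The exact permutation p was then 0.0571 for Aqp2 without water-loaded library 1 or any 1 control, and for Aqp3 without control 2 or control 3, although 0.0286 could still be reached; in the other runs it was 0.0286. In the block, leaving out pairs 1 to 4 gave -0.93, -1.12, -0.77 and -1.02 for Aqp2 and -1.75, -1.62, -1.74 and -2.07 for Aqp3. Over 21 settings Tubb5 and Sfrp2 were each called in 13, and Aqp3 in 6. Other causes of these shifts were not tested. Read totals are unknown, which limits statements on genes near 0.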
